A study of Mus musculus with 6 samples.

Results

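The genes described here are the mouse orthologs of 10 genes that lie in or near human Alzheimer disease risk loci: Bin1, Clu, Picalm, Sorl1, Cd2ap, Ptk2b, Abca7, Mef2c, Spi1 and Rin3. They were taken by symbol, and all 10 were found among the 32285 genes that the count matrices list. Each was followed through 8 cell classes of the hippocampus, to ask which class carries its RNA and how its level moves between 3 groups of mice. Untreated disease-model animals were 5×FAD with PBS alone (5xFAD_PBS), treated ones were 5×FAD with Aβ3FTnAu (5xFAD_Ab3FTnAu), and wild-type littermates received PBS as well (WT_PBS). All were 6 months old, and each group had 2 samples. The 5×FAD line carries human transgenes with familial Alzheimer mutations under a neuronal promoter and forms amyloid-β plaques, so both treated and untreated 5×FAD groups carry them and the wild-type group does not. By the series title, Aβ3FTnAu is a gold-bearing protein nanostructure directed at those plaques. Whether the 2 samples per group are different animals was not stated, and the p-values below measure the spread between samples, which may be technical.

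Many of the genes near human risk loci serve a few cell functions. Bin1, Picalm, Cd2ap and Rin3 encode proteins that shape membranes or drive early steps of endocytosis, and Sorl1 encodes a receptor that sorts the amyloid precursor protein away from the endosomes where amyloid-β is made. Clu and Abca7 serve lipid transport outside and across the cell membrane, Ptk2b is a calcium-responsive tyrosine kinase, and Spi1 and Mef2c encode transcription factors, of which Spi1 (PU.1) sets the identity of myeloid cells, microglia among them.

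The 6 libraries held 5196 to 14993 barcodes and 32528417 to 76780861 UMIs each, and 41656 barcodes were kept. A barcode was put in a class from UMIs of fixed marker genes, none of them among the 10. This gave 914 microglia, 959 astrocytes, 2965 oligodendrocytes, 1178 oligodendrocyte precursors, 8658 dentate granule neurons, 6216 CA1 neurons, 3589 CA3 neurons and 3305 inhibitory neurons, and 12295 further neurons had no clear field. The 12 microglial markers summed to between 8718 and 16454 CPM (UMIs per 1000000 UMIs of the class) in microglia and to at most 588.8 CPM in any other class. Barcodes without a mitochondrial UMI made up 65.8% to 66.6% of a 5xFAD_Ab3FTnAu sample, 17.9% to 22.7% of a 5xFAD_PBS sample and 30.1% to 57.4% of a WT_PBS sample, so this share moved with the groups. The labels name single-cell suspensions, and whether some barcodes hold nuclei was not tested. Microglia were shallow, at 0.283 of the median depth of their own sample, and the 5xFAD_Ab3FTnAu samples held 41 and 86 of them. Any pair of libraries shared 9 to 45 barcodes.

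Microglia carried more of these genes than any other class. The mean CPM over the 6 samples was highest in microglia for 5 of the 10 (Picalm, Cd2ap, Mef2c, Spi1 and Rin3), and in oligodendrocytes for Bin1, astrocytes for Clu, dentate granule neurons for Ptk2b, CA1 neurons for Sorl1 and inhibitory neurons for Abca7. Each class was also tested against the mean of the 7 others with the sample as a block (edgeR, adjusted p under 0.05 over 14262 genes). In microglia 7 of the 10 genes were higher and 2 lower, where 23.3% of all genes were higher. The counts higher were 2 in astrocytes (20.4% of all genes), 3 in oligodendrocytes (29.2%), 1 in precursors (21.6%), 5 in dentate granule neurons (37.3%), 3 in CA1 (38.4%), 4 in CA3 (38.9%) and 3 in inhibitory neurons (34.7%). The microglial count stood farthest above the share of all genes, a difference that was not tested.

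**Figure D1:**
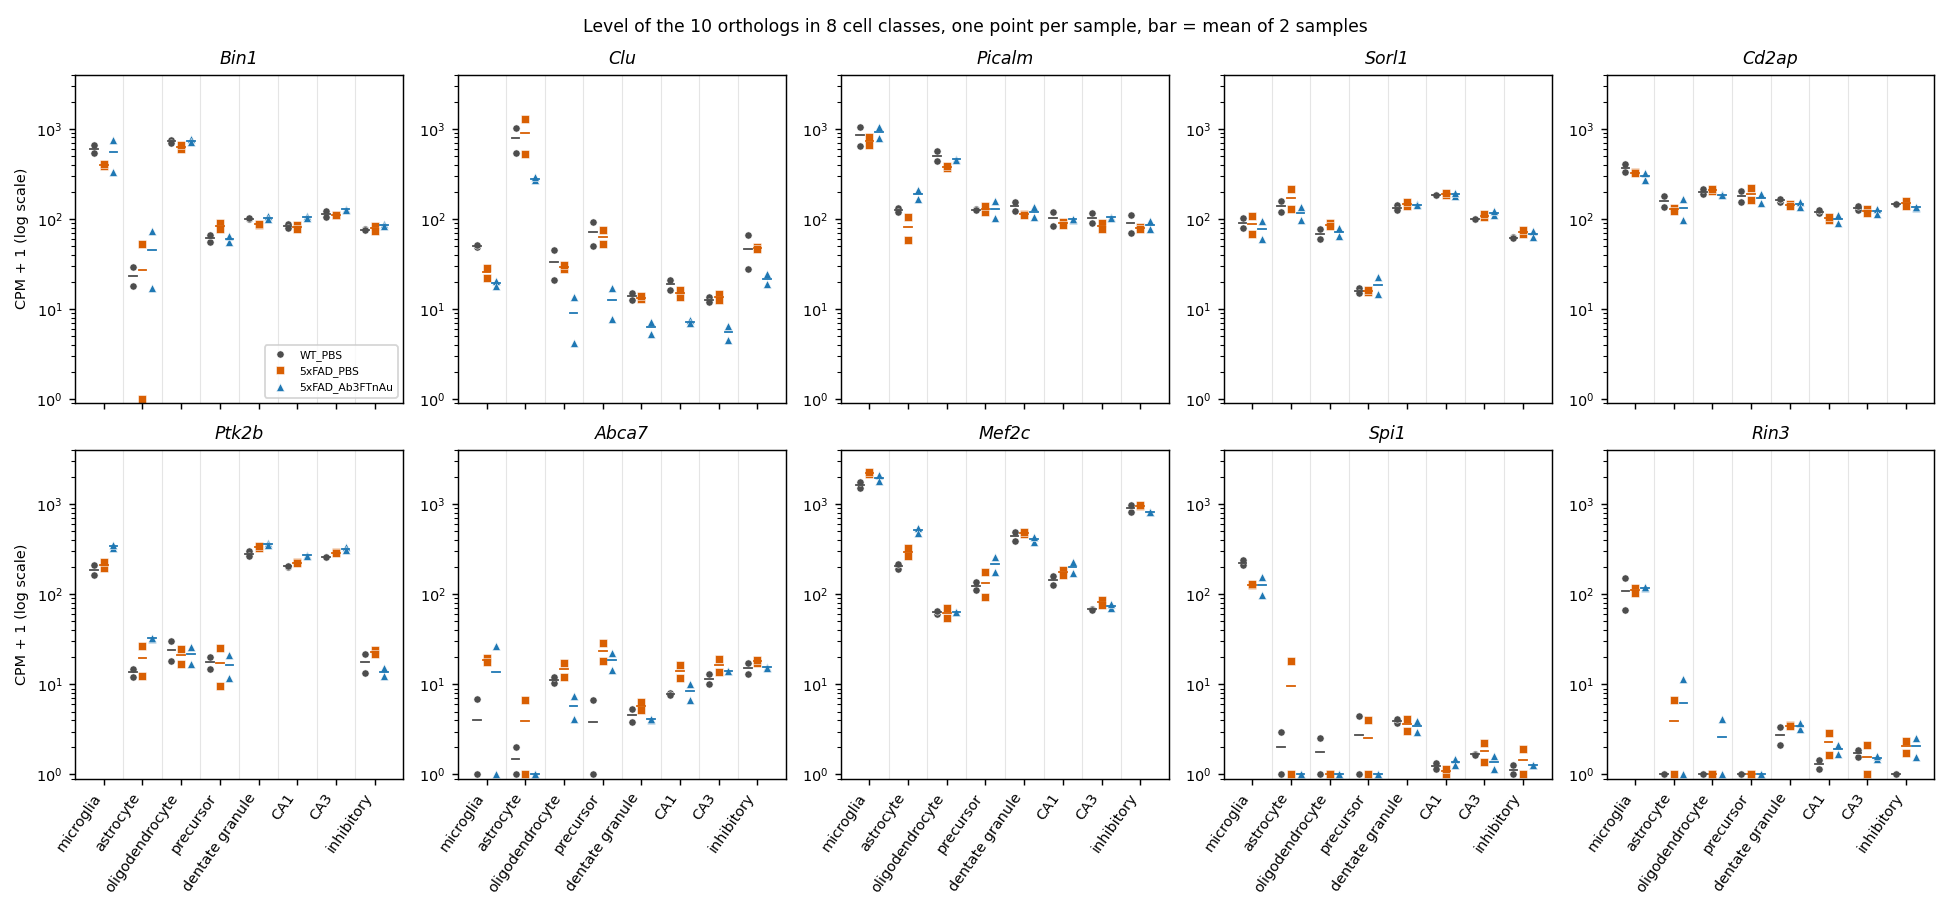
Level of each of the 10 orthologs (CPM + 1, log scale) in the 8 cell classes. Each point is 1 sample, coloured by group, and the short bar is the mean of the 2 samples of a group. Spi1 and Rin3 stand in microglia with no other class near them, Clu in astrocytes, and Ptk2b is split between a high set of microglia and excitatory neurons and a low set of the remaining classes.

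Spi1 and Rin3 were the most restricted of the 10. Spi1 (chr2:91082390-91115756, plus strand, GRCm38) was at 208 and 240 CPM in WT_PBS microglia, 125 and 129 in 5xFAD_PBS and 97.1 and 154 in 5xFAD_Ab3FTnAu. Rin3, a guanine nucleotide exchange factor for Rab5 (chr12:102283048-102390855, plus strand), was at 65.5 and 151 CPM in WT_PBS microglia, 118 and 103 in 5xFAD_PBS and 116 and 120 in 5xFAD_Ab3FTnAu. No sample of another class came above 17.2 CPM for Spi1 or 10.4 for Rin3. The log2 difference of microglia over the mean of the other classes was 7.19 ± 0.23 (SE) for Spi1 (adjusted p = 4.08e-35) and 6.95 ± 0.30 for Rin3 (adjusted p = 3.70e-27). In precursors Rin3 had 0 counts, so its pooled level in microglia was at least 90.0-fold higher, taking a floor of 3 counts over the 6 samples.

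A low level of both genes remained in dentate granule neurons, where the test also called them higher than the mean of the other classes. There 134 Spi1 counts gave 2.69 CPM over all samples, 53.7-fold below microglia (exact 95% counting interval 42.9 to 67.3). Rin3 had 103 counts and was 52.0-fold below microglia (40.2 to 67.5). The level of the microglial markers in the same neurons gives a scale: per 1000 microglial marker counts there were 6.64 Spi1 counts in dentate granule neurons, 11.3 in microglia, 1.12 in CA1, 2.45 in CA3 and 1.10 in inhibitory neurons. For Rin3 the same figure was 5.11 in dentate granule neurons, 8.45 in microglia and 2.58 to 3.26 in the other neurons. Over single samples the Spi1 figure was 4.17 to 9.34 in granule neurons and 9.45 to 22.7 in microglia, with no overlap, while CA3 reached 4.74. For Rin3 the samples overlapped, at 3.83 to 6.30 in granule neurons, 3.98 to 14.3 in microglia and 0.741 to 7.12 in CA1. The part that free RNA from microglia has in these counts was not tested.

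Mef2c, a factor of neurons and myeloid cells alike (chr13:83504034-83667080, plus strand), was highest in microglia but far from confined to them. Its microglial level was 1943 CPM in the mean (range 1511 to 2269), followed by inhibitory neurons at 899 (827 to 982) and dentate granule neurons at 443 (384 to 495). These 3 classes did not overlap with each other over the 6 samples. CA3 neurons (74.2) and oligodendrocytes (62.3) were lowest, and their ranges overlapped. The log2 difference from the mean of the other classes was 2.68 ± 0.09 in microglia, 2.06 ± 0.07 in inhibitory neurons and 0.98 ± 0.08 in granule neurons, and -1.76 ± 0.10 in CA3. Excitatory neurons of the hippocampal fields therefore differed among themselves: Mef2c was higher in granule neurons than in CA1 and higher in CA1 than in CA3 in each of the 6 samples.

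The endocytic genes had glial maxima of different breadth. Picalm, a clathrin assembly protein (chr7:90130213-90213465, plus strand), was at 832 CPM in microglia (644 to 1053) and 444 in oligodendrocytes (364 to 559), with no overlap, and its other 6 classes lay between 83.7 and 130 CPM with overlapping ranges. Cd2ap, an adaptor that ties endocytic membranes to actin (chr17:42792951-42876665, minus strand), spread least of all, from 329 CPM in microglia to 107 in CA1. Its microglial range (272 to 404) lay above that of oligodendrocytes, the next class. Picalm was higher in microglia by 2.14 ± 0.07 and in oligodendrocytes by 1.63 ± 0.06 on the log2 scale, and Cd2ap by 0.66 ± 0.08 and 0.34 ± 0.06 (adjusted p at most 4.26e-06 in these 4 tests).

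To show the start regions of the genes that peak in microglia, the 250 bases before the RefSeq transcription start (GRCm38.p6, strand of the gene) are printed for Picalm, Mef2c, Rin3 and Cd2ap. Of the 10 genes, 6 were matched in the table and gave 10 promoters. Bin1, Clu, Ptk2b and Spi1 were not matched. Capitals mark GAGGAA, the core of the sites that PU.1 is known to bind, or its reverse complement TTCCTC, both searched on the printed strand.
Picalm, chr7:90129963-90130212, plus strand: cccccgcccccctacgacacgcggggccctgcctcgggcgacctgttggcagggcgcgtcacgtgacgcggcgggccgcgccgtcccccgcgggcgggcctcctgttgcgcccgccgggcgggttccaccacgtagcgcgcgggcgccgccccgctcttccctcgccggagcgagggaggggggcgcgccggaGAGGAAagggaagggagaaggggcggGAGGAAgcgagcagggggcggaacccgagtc
Mef2c, chr13:83503784-83504033, plus strand: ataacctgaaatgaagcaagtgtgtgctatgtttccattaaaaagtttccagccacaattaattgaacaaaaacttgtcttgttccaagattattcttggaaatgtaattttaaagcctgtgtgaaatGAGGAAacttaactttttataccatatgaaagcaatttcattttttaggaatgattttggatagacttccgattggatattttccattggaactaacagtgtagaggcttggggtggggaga
Rin3, chr12:102282824-102283073, plus strand: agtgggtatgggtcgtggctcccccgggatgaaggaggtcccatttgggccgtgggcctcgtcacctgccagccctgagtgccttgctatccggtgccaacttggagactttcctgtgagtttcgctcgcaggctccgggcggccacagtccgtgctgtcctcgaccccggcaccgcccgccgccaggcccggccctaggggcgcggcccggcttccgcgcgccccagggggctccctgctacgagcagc
Cd2ap, chr17:42876425-42876674, minus strand: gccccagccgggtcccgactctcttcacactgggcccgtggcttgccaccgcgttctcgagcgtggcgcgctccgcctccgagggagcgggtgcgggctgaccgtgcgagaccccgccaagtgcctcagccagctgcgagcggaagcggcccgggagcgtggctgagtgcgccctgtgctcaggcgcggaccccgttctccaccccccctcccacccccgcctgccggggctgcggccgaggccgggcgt
The printed Picalm window held 2 matches, the printed Mef2c window 1, and the printed Rin3 and Cd2ap windows 0. Mef2c and Rin3 had further promoters that are not printed, and the Mef2c one at chr13:83523406-83523655 held 1 match. By the GENCODE coordinates given above, the Rin3 and Cd2ap windows lie partly inside the gene, since the RefSeq starts differ. Over all, 3 of the 10 promoters held a match, beside 23.3% of 32851 RefSeq promoters of the same length. A match is a run of letters and not a binding site, and no match says only that these letters are not in this window.

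Bin1, a membrane-bending protein of the amphiphysin family (chr18:32377230-32435737, plus strand), was the gene of this set carried by oligodendrocytes. Its mean there was 698 CPM, with 512 in microglia and 116 in CA3 neurons. Oligodendrocytes were above microglia in the order of means, but the ranges of the 6 samples overlapped (599 to 763 against 333 to 757), although within the pairs of classes from 1 sample the oligodendrocyte value was the higher in 6 of 6. The 2 classes together stood apart from the rest, since no microglial sample fell below 333 CPM and no CA3 sample rose above 128. The log2 difference from the other classes was 2.88 ± 0.06 in oligodendrocytes and 1.68 ± 0.10 in microglia, against -1.15 ± 0.13 in their precursors. A lincRNA, A830052D11Rik, overlaps Bin1 on the opposite strand and had 323 counts in the 8 classes beside 17424 for Bin1.

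Ptk2b and Sorl1 had their highest class means in excitatory neurons, but neither was confined to them. Ptk2b, also called Pyk2 (chr14:66153257-66281052, minus strand), had a high and a low set of classes. Dentate granule neurons (325 CPM in the mean), CA3 (290), microglia (246) and CA1 (233) overlapped each with the next, and the lowest CA1 sample (202) lay far above the highest oligodendrocyte sample (29.5). Inhibitory neurons were in the low set at 17.1 CPM, with oligodendrocytes, astrocytes and precursors. The log2 difference from the other classes was 2.73 ± 0.07 in CA3 and 2.71 ± 0.07 in granule neurons but -2.35 ± 0.13 in inhibitory neurons (adjusted p = 2.44e-23). Ptk2b thus marked excitatory from inhibitory neurons in each sample, although no list used to set the classes held it.

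Sorl1 (chr9:41964720-42124297, minus strand) was broad. It was highest in CA1 neurons at 186 CPM, with a narrow range of 179 to 194, and astrocytes (141) and granule neurons (140) followed. Precursors stood out at the other end: their 6 samples lay between 13.5 and 21.6 CPM, below every sample of every other class. The log2 difference was 1.57 ± 0.05 in CA1 and -2.86 ± 0.17 in precursors (adjusted p = 1.52e-22). The test also called Sorl1 higher in granule neurons (0.98 ± 0.06), CA3 (0.74 ± 0.06) and astrocytes (0.65 ± 0.12). An antisense gene, Gm16214, lies over Sorl1 and had 2484 counts beside 20164. The use of strand in counting was not given in the sources used here, so a part of either count may belong to the other gene.

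The lipid genes differed in depth and in class. Clu, which encodes the secreted chaperone and apolipoprotein clusterin (chr14:65968483-65981547, plus strand), was an astrocyte gene, at 656 CPM in the mean against 48.1 in precursors, the next class. It was higher in astrocytes by 4.82 ± 0.11 on the log2 scale (adjusted p = 8.17e-42). Abca7, a lipid transporter (chr10:79996494-80015572, plus strand), was thinly counted, with a highest class mean of 15.2 CPM in inhibitory neurons, and 6 of its 7 neighbouring pairs of classes overlapped. Its class order is therefore not resolved, apart from the granule neurons (3.83 CPM), which lay below every CA1 sample, and astrocytes, where 2 counts were found in all. The test called Abca7 higher in inhibitory (1.14 ± 0.18), CA3 (1.12 ± 0.16) and CA1 neurons (0.44 ± 0.18).

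For each gene the 2 genes with the most similar profile over the 48 sums (8 classes in 6 samples) were sought among 11201 others, or 11202 for Abca7, by Pearson's r of log2(CPM + 1). Spi1 was nearest to Irf8 (r = 0.947) and Gm35154 (0.936), and Rin3 to Cd200r1 (0.960) and Anxa3 (0.946). Picalm was nearest to Mbnl1 (0.939) and Gna12 (0.934), Cd2ap to Sall1 (0.906) and Snx29 (0.899), and Mef2c to Fgf13 (0.881) and Man1c1 (0.871). Clu was nearest to Pla2g7 (0.899) and Msi2 (0.882), Bin1 to Zdhhc9 (0.871) and Trim36 (0.840), and Ptk2b to Mrtfa (0.923) and Ppp3ca (0.864). The genes nearest to Abca7, Ptpn23 (0.753) and Tmem169 (0.736), were less alike, as was Hivep3 to Sorl1 (0.793). The sums share libraries and depth, so these values are descriptions.

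Between the groups, most of these genes did not pass the test. In counts simulated for 5xFAD_PBS against WT_PBS, the test called 27% (CA3) to 45% (microglia) of 2-fold changes. A gene without a call may therefore still have changed. Of the 80 combinations of gene and class, 59 had enough counts to be tested (all 10 genes in granule neurons, 5 in astrocytes and in precursors). For 5xFAD_PBS against WT_PBS, edgeR called 0 of the 59 and DESeq2 0, with 5 at an unadjusted p under 0.05, where 0.304% of all gene and class combinations were called. For 5xFAD_Ab3FTnAu against 5xFAD_PBS, edgeR called 0 and DESeq2 0, with 15 at an unadjusted p under 0.05 and a share of 0.0904% over all genes. For 5xFAD_Ab3FTnAu against WT_PBS, both tools called 3, with 16 at an unadjusted p under 0.05 by edgeR and a share of 3.01% over all genes. The counts rest on single libraries: without WT_PBS replicate 2 they were 9, 12 and 12 in this order, and without WT_PBS replicate 1 they were 0, 12 and 7. Without 5xFAD_PBS replicate 1 the second count was 1, and without 5xFAD_Ab3FTnAu replicate 1 or 2 the last was 1 or 0. The shares over all genes quoted above belong to the main fit. Those for the fits without a sample are not given here, so the counts from these fits cannot be set against a share. The comparisons share samples in pairs: the treated ones, the wild-type ones or the 5xFAD_PBS ones.

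**Figure D2:**
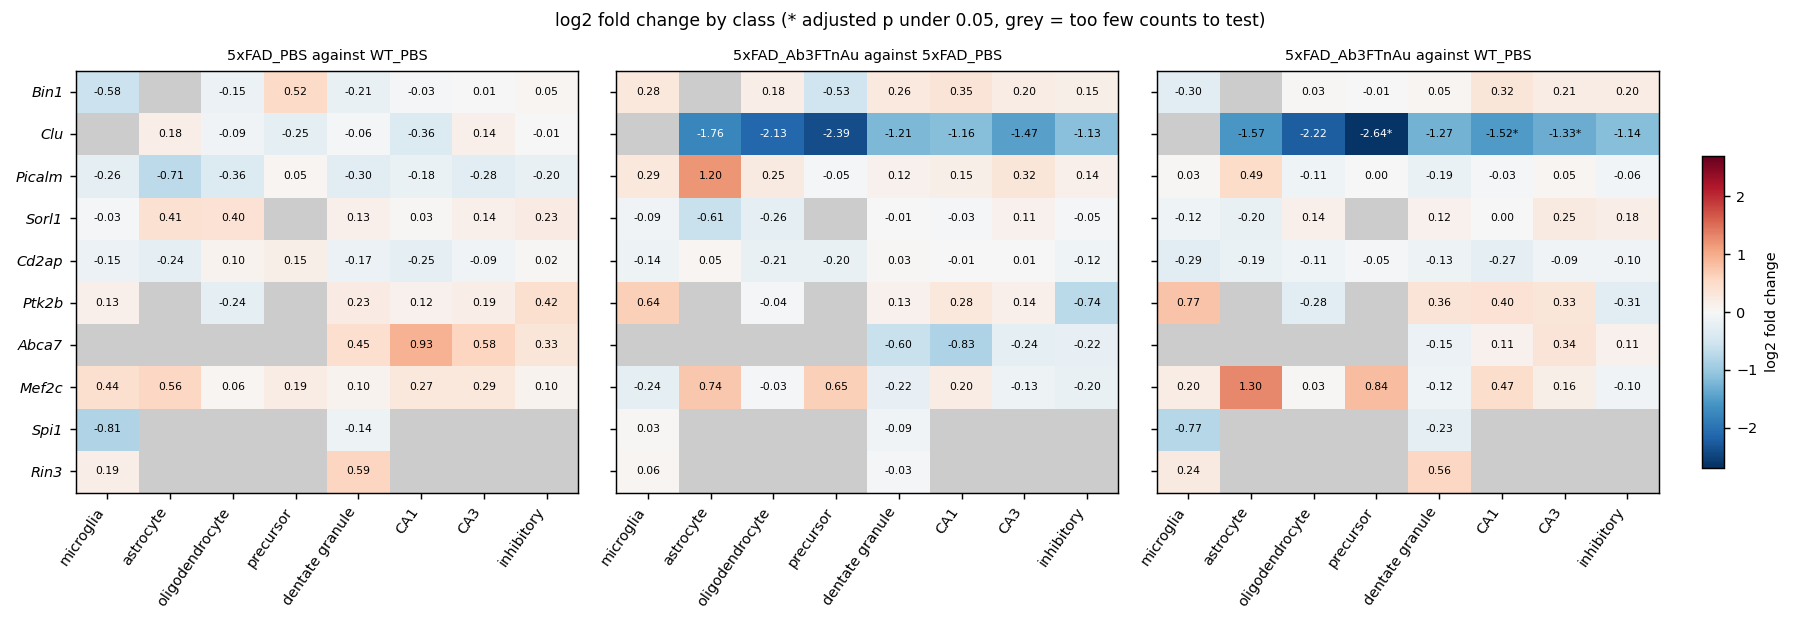
Fitted log2 fold change of each gene in each class for the 3 comparisons, with red for higher and blue for lower in the group named first. An asterisk marks an adjusted p under 0.05, and grey cells had too few counts to test. The Clu row is blue in the 7 tested classes of both comparisons with 5xFAD_Ab3FTnAu, from -1.13 to -2.64, and its 3 asterisks stand in precursors, CA1 and CA3 against WT_PBS.

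The 3 calls were all Clu, lower in 5xFAD_Ab3FTnAu than in WT_PBS. In precursors Clu was at 92.3 and 48.5 CPM in WT_PBS, 51.4 and 73.4 in 5xFAD_PBS and 16.2 and 6.74 in 5xFAD_Ab3FTnAu, and it fell by 2.64 ± 0.50 (SE) on the log2 scale (adjusted p = 0.0256, where 1.59% of all genes were lower). In CA1 neurons it was at 20.1 and 15.3 CPM in WT_PBS, 12.5 and 15.2 in 5xFAD_PBS and 6.50 and 5.92 in 5xFAD_Ab3FTnAu, and it fell by 1.52 ± 0.22 (adjusted p = 0.0449, 1.89% of all genes lower). In CA3 neurons it was at 12.5 and 10.8, 13.8 and 11.5, and 5.48 and 3.49 CPM in the same order, and it fell by 1.33 ± 0.29 (adjusted p = 0.0490, 1.93% of all genes lower). In these classes both treated samples lay below the 4 others, and WT_PBS and 5xFAD_PBS overlapped in precursors and CA3. The levels in CA1 and CA3 are low, with 566 and 308 Clu counts over the 6 samples. Precursors had 145 Clu counts over the 6 samples, and the 2 5xFAD_Ab3FTnAu samples together held 8 of them. Over the alternative settings the direction held in each of these classes, but the adjusted p ran from 1.84e-06 to 0.111 in precursors (under the threshold in 7 of 15), from 4.36e-07 to 0.310 in CA1 (8 of 16) and from 0.000657 to 0.290 in CA3 (5 of 16). DESeq2 called CA1, CA3 and granule neurons (adjusted p = 0.0222 there) and not precursors (0.0648).

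Astrocytes, the class with the highest Clu level, had the same order without a call. Their Clu level was 1029.6 and 539 CPM in WT_PBS, 530 and 1280.0 in 5xFAD_PBS and 271 and 287 in 5xFAD_Ab3FTnAu. The fitted log2 change was -1.57 ± 0.43 against WT_PBS (adjusted p = 0.108) and -1.76 ± 0.43 against 5xFAD_PBS (adjusted p = 0.234). The 2 samples of each PBS group lay far apart, and the treated pair did not. In the other tested classes the change against WT_PBS was -2.22 ± 0.64 in oligodendrocytes (adjusted p = 0.0773), -1.27 ± 0.25 in granule neurons (0.0772) and -1.14 ± 0.36 in inhibitory neurons (0.0851). The oligodendrocyte value rests on 6 Clu counts in the 2 5xFAD_Ab3FTnAu samples together.

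Both 5xFAD_Ab3FTnAu samples were below the other 4 for Clu in each of the 8 classes, microglia included, where 39 counts were too few to test. The share of tested genes with this order was 11.6% in microglia, 10.1% in astrocytes, 11.7% in oligodendrocytes, 10.4% in precursors, 18.6% in granule neurons, 20.4% in CA1, 19% in CA3 and 19.7% in inhibitory neurons. In all 7 classes where Clu was tested, 32 of 2796 genes (1.14%) had it, Clu among them. Another of the 32, named here after its values were seen, was Apoe. The 32 also held Rps21, Rpl27a, Rpl13, Cox7c, Atp5a1, Hspa5, Cst3 and Malat1, so the order was not particular to Clu and Apoe. The sum of the 11 astrocyte markers had the order of Clu in some classes and not in others. In astrocytes it was 8525 to 9866 CPM in WT_PBS, 8082 to 9407 in 5xFAD_PBS and 7232 to 7688 in 5xFAD_Ab3FTnAu, with both treated samples below the other 4. The treated sums were also the lowest in oligodendrocytes (154 to 168 CPM against 188 to 219 in WT_PBS and 182 to 183 in 5xFAD_PBS). In CA1 they were lowest too (53.3 to 63.0 CPM against 73.7 to 88.0 in WT_PBS and 70.8 to 88.4 in 5xFAD_PBS), while in CA3 (89.7 to 98.1 against 71.7 to 93.9 and 62.9 to 97.4) and precursors (483 to 495 against 454 to 658 and 397 to 526) the ranges overlapped.

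In CA1 the treated mean was below the means of both other groups for 9 of the 11 astrocyte markers and not for the other 2, Ntsr2 and Acsbg1. The count was 8 in inhibitory neurons, 7 in oligodendrocytes, 6 in astrocytes, CA3 and granule neurons, 3 in precursors and 2 in microglia. In granule neurons the treated marker sums were the highest, at 774 to 785 CPM against 734 to 740 in WT_PBS and 756 to 759 in 5xFAD_PBS. The part of free astrocyte RNA in the neuronal Clu counts was not tested. Per 1000 astrocyte marker counts there were 93.7 Clu counts in astrocytes, 185 in CA1, 111 in CA3 and 285 in inhibitory neurons, but 15.1 in granule neurons, where Slc4a4 made up most of the marker sum. These ratios are pooled over the samples. Over single samples the range in astrocytes was 37.3 to 136, which overlapped with CA1 (94.0 to 273) and not with inhibitory neurons (143 to 404). Among barcodes with no mitochondrial UMI, a share that moved with the groups, Clu in CA1 fell by 1.85 ± 0.31 (adjusted p = 0.0321) and in CA3 it was at -1.34 ± 0.46 (adjusted p = 0.101), while precursors had too few Clu counts to test.

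**Figure D3:**
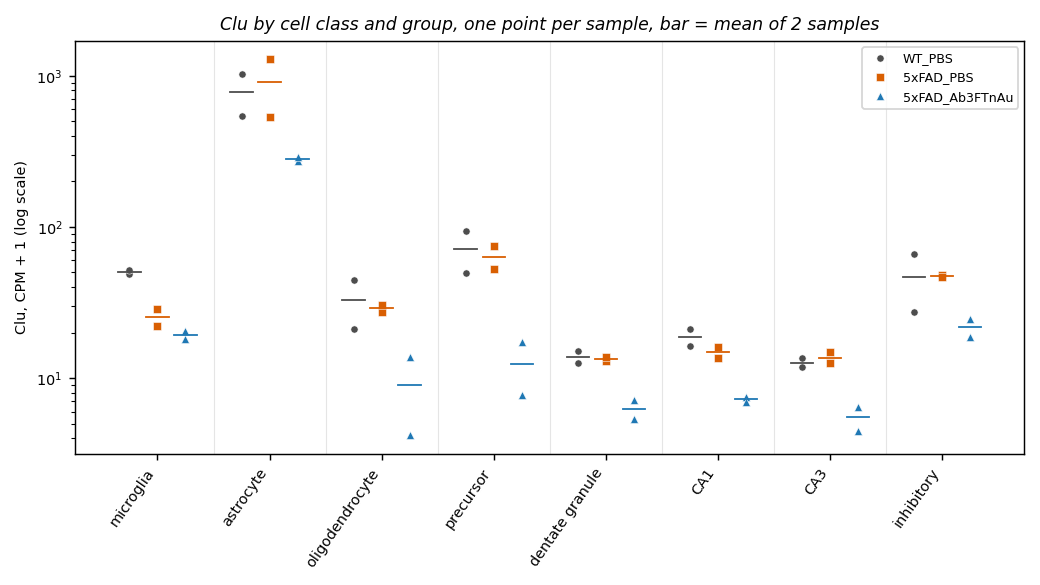
Clu level (CPM + 1, log scale) in the 8 classes, with WT_PBS as grey circles, 5xFAD_PBS as orange squares and 5xFAD_Ab3FTnAu as blue triangles. Each point is 1 sample and the bar is the mean of 2. Both blue points lie below the other 4 points in every class, at 271 and 287 CPM in astrocytes.

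Ptk2b had the opposite order and did not pass the test. In CA1 it was at 202 and 207 CPM in WT_PBS, 226 and 222 in 5xFAD_PBS and 274 and 269 in 5xFAD_Ab3FTnAu, with a log2 change of 0.40 ± 0.10 against WT_PBS (adjusted p = 0.0624) and 0.28 ± 0.10 against 5xFAD_PBS (0.220). In granule neurons it was at 299 and 266, 323 and 341, and 366 and 352 CPM (0.36 ± 0.09 against WT_PBS, adjusted p = 0.0827), and in CA3 at 259 and 259, 293 and 286, and 335 and 307 CPM (0.33 ± 0.10, adjusted p = 0.0892). In microglia it was at 208 and 164, 198 and 226, and 330 and 350 CPM (0.77 ± 0.30, adjusted p = 0.163). In these 4 of its 6 tested classes the treated samples lay above the other 4, as did 19.9% of tested genes in granule neurons, 21.6% in CA1, 21.1% in CA3 and 12.5% in microglia. Inhibitory neurons had the other order against 5xFAD_PBS, at 14.2 and 11.4 CPM against 22.9 and 20.6 (-0.74 ± 0.32, adjusted p = 0.318). Clu and Ptk2b are neighbours, 171709 bp apart on chromosome 14, and their treated values lay on opposite sides of the PBS samples in microglia, granule neurons, CA1 and CA3.

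**Figure D4:**
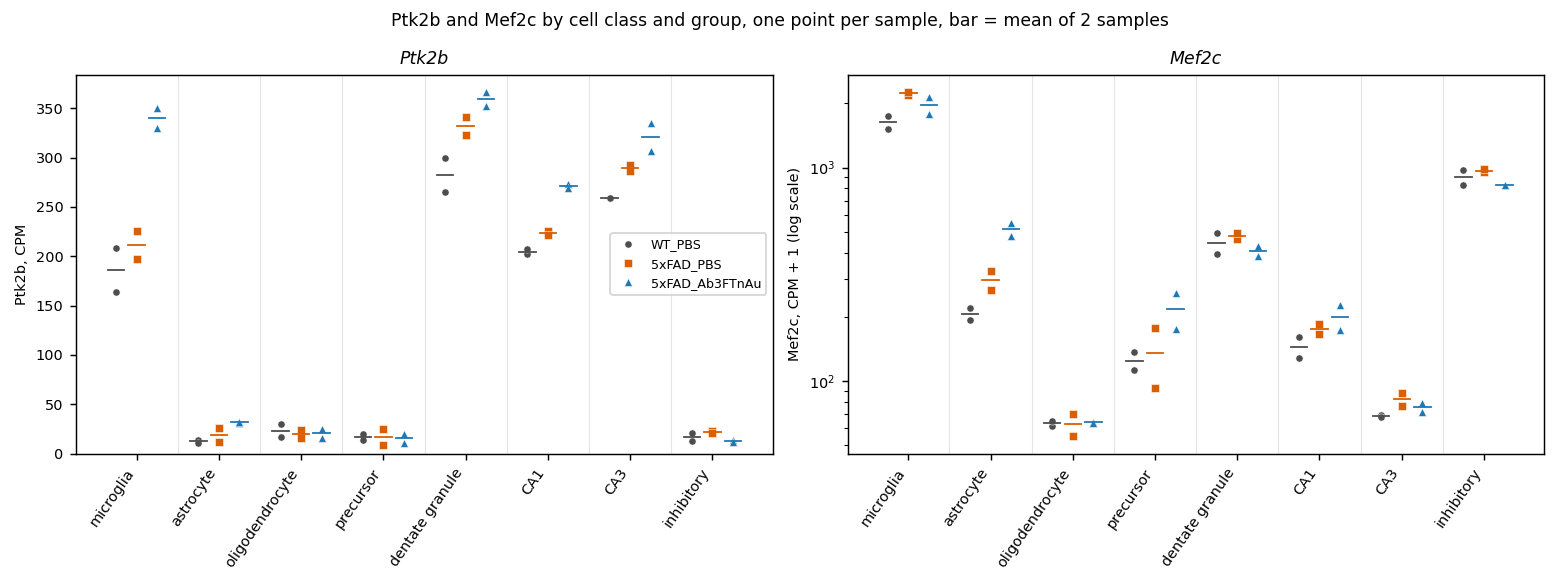
Levels of Ptk2b (CPM, linear axis from 0) and Mef2c (CPM + 1, log scale) by class and group, with 1 point per sample and a bar at the mean of 2. The Ptk2b means stand in the order WT_PBS, 5xFAD_PBS, 5xFAD_Ab3FTnAu from low to high in microglia, astrocytes, granule neurons, CA1 and CA3, and the Mef2c means do so in astrocytes, precursors and CA1, with no difference called in the main fit.

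The order of the Mef2c levels was not the same in every class, and none of its changes within a class was called in the main fit. In microglia Mef2c was at 1511 to 1754 CPM in WT_PBS, 2192 to 2269 in 5xFAD_PBS and 1793 to 2136 in 5xFAD_Ab3FTnAu. Both WT_PBS samples lay below the other 4 there, with a log2 change of 0.44 ± 0.22 for 5xFAD_PBS against WT_PBS (adjusted p = 0.290). In astrocytes it was at 191 and 219 CPM in WT_PBS, 328 and 266 in 5xFAD_PBS and 551 and 479 in 5xFAD_Ab3FTnAu, a log2 change of 1.30 ± 0.27 against WT_PBS (adjusted p = 0.0575), and the treated samples lay above the other 4, as did 13.1% of tested genes there. Over 16 alternative settings this astrocyte change ran from 0.99 to 1.94, and some of these settings called it. The 5xFAD_Ab3FTnAu samples held 67 and 37 astrocytes, with 83 Mef2c counts together. In precursors it was at 112 and 135, 177 and 91.7, and 256 and 175 CPM (0.84 ± 0.30 against WT_PBS, adjusted p = 0.153). In granule neurons (394 and 495, 461 and 493, 384 and 430 CPM) and inhibitory neurons (830 and 979, 949 and 982, 827 and 828) the treated means were the lowest, with changes of -0.12 ± 0.14 and -0.10 ± 0.13 against WT_PBS. The difference between classes was tested itself, first for microglia against each other class, where 0 of 201 tests over the 10 genes were called (lowest adjusted p = 0.188, 12 at an unadjusted p under 0.05, edgeR alone). Over all 28 pairs of classes, a set chosen after the data were seen, 5 of 723 tests were called, all for Mef2c (71 at an unadjusted p under 0.05). The share of all genes called in the same pairs is not given here. Neither count can therefore be read as a trait of the 10 genes.

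In microglia of 5xFAD_PBS mice, Spi1 had a change of -0.81 ± 0.28 on the log2 scale against WT_PBS (adjusted p = 0.104), with both 5xFAD_PBS samples below both WT_PBS samples. Bin1 was at 536 and 656 CPM in WT_PBS microglia and 381 and 410 in 5xFAD_PBS (-0.58 ± 0.27, adjusted p = 0.246). Its treated microglia spread from 757 to 333 CPM and covered both other groups. In the same microglia the 10 oligodendrocyte markers summed to 707 to 815 CPM in WT_PBS, 313 to 353 in 5xFAD_PBS and 367 to 466 in 5xFAD_Ab3FTnAu, and each of them had a UMI there. Their sum was thus highest in WT_PBS, and Bin1 is the oligodendrocyte gene of the set. Microglial marker sums were 10561 to 16454 CPM in WT_PBS, with 12660 to 13186 in 5xFAD_PBS inside that range, and 8718 to 9207 in 5xFAD_Ab3FTnAu. The part of either list in the Spi1 and Bin1 values was not tested.

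The remaining values held no call. Bin1 in CA1 had 3744 counts over the 6 samples. Its log2 change in 5xFAD_Ab3FTnAu was 0.35 ± 0.12 against 5xFAD_PBS (adjusted p = 0.207) and 0.32 ± 0.12 against WT_PBS (0.127). Both treated samples lay above the other 4 for Bin1 in CA1 and CA3, as did 21.6% and 21.1% of tested genes. In granule neurons Bin1 changed by 0.26 ± 0.10 against 5xFAD_PBS (adjusted p = 0.309), and treated and WT_PBS samples overlapped there. Picalm in astrocytes was at 131 and 118 CPM in WT_PBS, 57.6 and 103 in 5xFAD_PBS and 166 and 207 in 5xFAD_Ab3FTnAu (1.20 ± 0.43 against 5xFAD_PBS, adjusted p = 0.557). Picalm in oligodendrocytes was at 559 and 437 CPM in WT_PBS and 364 and 385 in 5xFAD_PBS (-0.36 ± 0.16, adjusted p = 0.409). Abca7 in CA1 was at 7.12 and 6.59, 15.6 and 10.8, and 9.10 and 5.78 CPM (0.93 ± 0.31 for 5xFAD_PBS against WT_PBS, adjusted p = 0.655). Sorl1, Cd2ap and Rin3 had no test with an unadjusted p under 0.05 in any class or comparison.

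The genes that work with these 10 were followed as 5 lists. Of other risk-locus orthologs, 61 genes and 299 tested combinations of gene and class, 4 rose and 0 fell in 5xFAD_PBS against WT_PBS, 0 rose and 5 fell in 5xFAD_Ab3FTnAu against 5xFAD_PBS, and 4 rose and 5 fell in 5xFAD_Ab3FTnAu against WT_PBS. Over all genes and classes 0.304%, 0.0904% and 3.01% were called in these comparisons, and in the last the share of the list is no higher than that of all genes. Most calls of the first 2 comparisons were in microglia, where the share of all genes was higher. There 3 of 31 tested genes of the list rose in the first comparison, where 5.44% of all genes were called. In the second, 3 of 31 fell, where 1.5% of all genes were called. In microglia Apoe, the main apolipoprotein of the brain, was at 607 and 543 CPM in WT_PBS, 4097 and 3889 in 5xFAD_PBS and 1534 and 905 in 5xFAD_Ab3FTnAu. It rose by 2.77 ± 0.27 on the log2 scale in 5xFAD_PBS against WT_PBS (adjusted p = 9.57e-06) and fell by 1.79 ± 0.26 in 5xFAD_Ab3FTnAu against 5xFAD_PBS (0.00372). Ank, a pyrophosphate transporter, rose by 3.38 ± 0.29 in 5xFAD_PBS and by 2.86 ± 0.33 in 5xFAD_Ab3FTnAu microglia against WT_PBS. Ctsb, the lysosomal protease cathepsin B, rose by 1.83 ± 0.28 in 5xFAD_PBS against WT_PBS and fell by 1.33 ± 0.29 in 5xFAD_Ab3FTnAu against 5xFAD_PBS. Trem2, the microglial lipid receptor, fell by 2.30 ± 0.45 in that last comparison, and rose by 2.28 ± 0.39 in 5xFAD_PBS oligodendrocytes, a class that should lack it. Microglial markers in those oligodendrocytes summed to 533 to 589 CPM in 5xFAD_PBS and 358 to 482 in WT_PBS, and their part in the Trem2 value was not tested.

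Apoe shared the lower order of Clu outside microglia. Against WT_PBS it fell in 5xFAD_Ab3FTnAu astrocytes (8044 and 4678 CPM in WT_PBS, 1093 and 1101 in 5xFAD_Ab3FTnAu), oligodendrocytes, precursors, CA3 and inhibitory neurons. Its log2 changes there were -2.60 ± 0.33, -1.62 ± 0.20, -2.74 ± 0.42, -0.99 ± 0.14 and -1.16 ± 0.17 in this order (adjusted p at most 0.0428). Against 5xFAD_PBS it fell in astrocytes (-2.75 ± 0.33) and in oligodendrocytes (-1.89 ± 0.20). Usp6nl rose by 0.89 ± 0.21 in oligodendrocytes, and Slc24a4 by 1.04 ± 0.19 and Jazf1 by 0.68 ± 0.13 in CA3, all in 5xFAD_Ab3FTnAu against WT_PBS.

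The partner lists had few calls, and their counts are given beside the share of all genes called in the same class and comparison. The combinations cover all 8 classes, while these shares are for 1 class. In the class of the calls, 16 clathrin partners, 13 sorting partners, 6 partners of Ptk2b and 10 factors were tested. Of 26 clathrin partners of Bin1, Picalm and Cd2ap (180 tested combinations), Dnm3, a dynamin, fell in microglia by 2.17 ± 0.35 in 5xFAD_PBS against WT_PBS (5.44% of all genes), and the other 2 comparisons had 0 calls by edgeR, with 17 and 30 at an unadjusted p under 0.05. Of 13 sorting partners of Sorl1 (79 combinations), Sorcs2 rose by 0.87 ± 0.13 and Snx27, a retromer adaptor, fell by 0.64 ± 0.13 in CA3 of 5xFAD_Ab3FTnAu against WT_PBS (4.36% of all genes in CA3, and 3.01% over the 8 classes, above the 2 of 79 here). Of 9 partners of Ptk2b (61 combinations), Grin2a, an NMDA receptor subunit of neurons, fell in microglia by 1.79 ± 0.39 in 5xFAD_Ab3FTnAu against 5xFAD_PBS, at 194 and 111 CPM against 327 and 593 (1.5% of all genes). Of 12 factors that act with Spi1 or Mef2c (59 combinations), Cebpb fell in CA1 by 1.36 ± 0.27 in 5xFAD_Ab3FTnAu against WT_PBS (3.24% of all genes). The called genes Grin2a and Dnm3 are best known from neurons, and the part of neuronal RNA in the microglial sums was not tested.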

How the data were processed

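RNA of single-cell suspensions from 6 hippocampal samples was measured with the 10x Genomics Chromium 3′ chemistry, per the labels' protocols. The deposited values are raw UMI counts per gene and barcode. Per the file headers, Cell Ranger 7.1.0 wrote them, and the submitters' processing notes name mm10 and Seurat 4.3.0.1. The use of introns and strand in counting was not given in the sources used here.

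Of 50224 barcodes, 44736 were kept, by a minimum of 500 genes and 1000 UMIs and a maximum of 15% mitochondrial UMIs. The highest Scrublet scores at 0.8% per 1000 barcodes were removed as doublets, 3080 in all (scanpy 1.11.5, Python 3.11.15). A glial class needed at least 3000 marker UMIs per 1000000, 4 marker UMIs from 3 markers, a lead of 2 times over the next list and under 4000 pan-neuronal UMIs per 1000000. A neuron field needed 2500 (dentate granule, CA3), 600 (CA1) or 8000 (inhibitory) field marker UMIs per 1000000, with 3 UMIs from 2 markers. CA1 neurons also had under 600 UMIs per 1000000 of markers of other excitatory neurons. These thresholds were set after marker levels per cluster were seen, before any value of the 10 genes. The 8 classes held 61.7% to 65.9% of a 5xFAD_Ab3FTnAu sample, 71.4% to 72.2% of a 5xFAD_PBS sample and 64.9% to 65.9% of a WT_PBS sample. Neurons of no clear field made up 29.9% to 35.2%, 24.0% to 24.6% and 30.0% to 31.5%.

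Counts were summed within each class of a sample and scaled to CPM. Groups were compared on the sums by quasi-likelihood F tests in edgeR 4.0.16 (R 4.3.3), 1 fit per class over the 6 samples, with TMM factors, filterByExpr and Benjamini-Hochberg adjustment over all genes of the fit. Each SE is the absolute log2 change divided by the square root of F. Classes were compared in 1 fit with sample as a block, and group effects between classes by a class-by-group term. DESeq2 1.42.0 was an alternative, with other gates, filters and samples. The scripts were tested on simulated data. Counting intervals are exact 95% intervals, cover counting error only, and floors are 3 counts over the 6 samples. Coordinates come from GENCODE vM21 (GRCm38). The genes named are the 10 orthologs, the called members of 5 partner lists (up to 4 per class and comparison) and the 2 most similar profiles among genes with at least 20 CPM in a class, of which 1 is not reported here. The 10 genes and the lists were chosen with earlier results of these data known.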

Additional observations from a re-analysis of the deposited data

Results flagged for a closer look

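The effect of 5xFAD_Ab3FTnAu on Mef2c differed between pairs of cell classes in 5 tests of the difference itself (edgeR class-by-group term, adjusted over all genes of a pair), out of 723 tests over the 10 genes and 28 pairs. Against WT_PBS, the log2 change was greater in oligodendrocyte precursors than in dentate granule neurons by 0.90 ± 0.22 (SE, adjusted p = 0.0176) and than in inhibitory neurons by 0.89 ± 0.21 (0.0105). Against 5xFAD_PBS, precursors exceeded granule neurons by 0.88 ± 0.23 (0.0259). Granule neurons minus CA1 neurons gave -0.59 ± 0.11 against WT_PBS (0.0466), and CA1 minus inhibitory neurons gave 0.59 ± 0.12 (0.0180). Within the classes the Mef2c changes against WT_PBS were 0.84 ± 0.30 in precursors, 0.47 ± 0.19 in CA1, -0.12 ± 0.14 in granule neurons and -0.10 ± 0.13 in inhibitory neurons, none of them called in the main fit. The 28 pairs were chosen after the data were seen, the p-values were not adjusted over pairs, and the 5 tests share samples and classes. How many of all genes were called in these pairs is not given here. The 5 calls can therefore not be read as a trait particular to Mef2c.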

How the results depend on the processing

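The number of genes called higher by class, 28 of 80, ran from 24 to 29 over the 12 alternatives, which included other gates, filters and each left-out sample. Calls between groups were less steady. For 5xFAD_PBS against WT_PBS they ran from 0 to 9 when each sample was left out, and stayed at 0 under the 10 other settings. For 5xFAD_Ab3FTnAu against 5xFAD_PBS the 0 became 7 with no filter on low counts (each Clu, lower), 11 with only the groups compared in the fit, and 0 to 12 when each sample was left out. For 5xFAD_Ab3FTnAu against WT_PBS the 3 became 11 with no filter, 5 with Leiden clusters, 1 with the stricter gate, 0 with equal cells per sample, 0 with only the groups compared, and 0 to 12 when each sample was left out. The cause of these shifts was not tested. Equal cells and left-out samples also leave fewer cells or samples. Where a sample is left out its partner stands alone and is assumed to vary like the other groups. The share of all genes called under each alternative is not given here. A higher or lower count of the 10 genes can therefore not be read as particular to them. With a replicate block the third count was 0 and the other 2 stayed at 0. Replicate numbers were taken as names only, and whether they pair the samples was not stated. The correlations of same-numbered deviations lay between -0.19 and 0.06 over 24 comparisons. Such values cannot show that the samples are unpaired. Picalm in oligodendrocytes reversed for 5xFAD_PBS against WT_PBS, from -0.36 to 0.15, with the strict cell filter, and the cause was not tested. Differences of group effects between classes gave 0 calls with microglia under either gate and 5 over all 28 pairs. Depth limits Abca7, Spi1 and Rin3 outside their main classes, and Clu in microglia and in treated precursors and oligodendrocytes.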

Other observations

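The 12295 neurons that met no field gate gave values outside the comparisons above, and these were not tested. Clu was at 31.0 and 23.0 CPM in WT_PBS, 22.6 and 26.1 in 5xFAD_PBS and 11.7 and 9.47 in 5xFAD_Ab3FTnAu. Ptk2b was at 160 and 154, 177 and 181, and 225 and 206 CPM in the same order, and Bin1 at 86.1 and 76.4, 72.2 and 77.3, and 101 and 103. Mef2c was at 269 and 283, 344 and 349, and 224 and 379 CPM.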
